A study of Mus musculus with 15 samples.

Results

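The genes described here carry out DNA replication and the entry into S phase. They were taken from a named list of 34 mouse genes: the MCM helicase subunits, the factors that load and activate the helicase, the replicative polymerases and primase, the sliding clamp and its loader, the enzymes of the lagging strand and of nucleotide supply, 2 chromatin factors of the fork, 4 regulators of the G1/S transition and the crosslink repair gene Fanca. Of the 34 genes, 33 had at least 1 named probe on the array, against 18217 gene symbols in all, and Rrm2, which encodes the small subunit of ribonucleotide reductase, had none named here. The 33 genes had 43 probes, and each gene was read on its brightest probe over all 15 arrays, so levels are compared between samples and never between genes.

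Replication starts from origins at which Cdc6 and Cdt1 load the MCM ring, built from Mcm2 to Mcm7, onto DNA in G1. On entry into S phase Cdc45 and the GINS complex join the ring to make the working helicase, and Mcm10 is needed for its activation. Primase and polymerase alpha lay primers, polymerases epsilon and delta copy the leading and lagging strands on the PCNA clamp, and Fen1 and Lig1 join the lagging strand fragments. Transcripts of these genes are abundant in dividing cells. Adult cardiomyocytes and hepatocytes divide rarely, whereas T cells that meet a foreign graft divide many times.

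The study transplanted hearts and livers between male mice of different strains and measured RNA of the whole graft on single-colour Agilent arrays, 3 per group. Cardiac allografts were B10 (C57BL/10) hearts placed heterotopically in CBA recipients and taken on postoperative day 5 (POD5). Hepatic allografts were B10.BR livers placed orthotopically in B10.D2 recipients and taken at POD5 or POD8. Cardiac and hepatic controls are labelled as normal tissue, while other passages of the study call the comparison group isografts, and their strain was not given in the sources used here. The hepatic POD5 and POD8 comparisons used the same 3 hepatic controls. Whole grafts hold donor tissue and recipient leukocytes together, so more cells of a type and more RNA per cell cannot be told apart in any result below. The labels give 3 separate samples per group. P-values rest on the spread between samples of a group, which the reported limma fit pooled over all 5 groups of both organs. An exact permutation test of 3 against 3 samples could not give a value below 0.10. The tests below are therefore from a limma fit across all probes, unless another test is named.

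Each array carried 43379 spots for 41174 probes. The 75th percentile of the processed signal ranged from 92.1 to 1247, and 52.5% to 70.5% of probes lay well above background. Hepatic control 1 was the dimmest array and had the lowest value of its group in 24 of the 33 genes. The 15 arrays lay on 6 slides. The 3 cardiac allografts shared a slide with hepatic POD5 allograft 3, and the 3 cardiac controls lay on another, so for the heart the slide cannot be told apart from the group. Hepatic POD5 allografts 1 and 2 lay together on a slide with no other array of the 15, and since no hepatic control shared a slide with a POD5 allograft, slide and group could not be compared within a slide there either. Hepatic POD8 allografts 1 and 2 shared a slide with hepatic controls 1 and 2, and hepatic POD8 allograft 3 and hepatic control 3 each lay on a slide of their own. All 8 cardiomyocyte markers were well above background on every cardiac array, all 6 hepatocyte markers measured were so on every hepatic array, and all of them differed between the organs' controls in the direction of the label.

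Replication genes were higher in allografts of both organs. In the cardiac allografts at POD5, 25 of the 33 genes were higher than in the controls and 0 were lower, at a limma adjusted P under 0.05, where 28.6% of all 41003 probes tested were called, 13.3% higher and 15.3% lower. In the hepatic allografts at POD5, 22 genes were higher and 1, Mcm10, was lower, against 15.1% of all probes called, 8.12% higher and 7.02% lower. In the hepatic allografts at POD8, 14 genes were higher and 0 were lower, against 11.7% called, 7.02% higher and 4.65% lower. The median log2 difference over the 33 genes was 1.47, 1.32 and 0.79 in these comparisons, and over all probes it was 0.02, -0.07 and -0.08.

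The arrays themselves separated in most of the genes. All 3 cardiac allografts lay above all 3 controls in 27 genes, as in 29.0% of all probes. All hepatic POD5 allografts lay above all controls in 28 genes, as in 12.4% of probes, and all POD8 allografts did so in 21 genes, as in 12.9% of probes. The reverse order, all allografts below all controls, was seen for 1 gene in the liver at either time, Mcm10, as for 18.8% and 18.6% of probes. At an unadjusted P under 0.05 stood 29 genes in the heart, 29 in hepatic POD5 grafts and 21 in POD8 grafts, against 39.8%, 30.2% and 26.5% of probes.

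A total of 11 genes were called higher in all 3 allograft comparisons: Mcm2, Mcm3, Mcm5, Mcm6, Cdc6, Gins2, Prim1, Fen1, Chaf1a, Uhrf1 and Fanca. Another 5 were called in both organs at POD5 and not in the liver at POD8 (Mcm7, Pold1, Lig1, Dut and E2f2), 8 in the heart only (Cdt1, Gins1, Pole, Rfc3, Rfc5, Tk1, Ccne1 and E2f1), 3 in hepatic grafts at both times (Mcm4, Cdc45 and Pcna) and 3 in hepatic POD5 grafts only (Pola1, Rfc4 and Rrm1). Ccne2 and Tyms were called in none. With slide as a random block the cardiac calls of Mcm6 (adjusted P = 0.050), Chaf1a (0.068), Rfc3 (0.071) and E2f1 (0.20) were lost. The same block lost the hepatic POD5 calls of Mcm7, Pola1, Rfc4 and Lig1 and kept all 14 POD8 calls. A call in 1 comparison and not in another does not show that they differ, and the differences themselves are tested further on.

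**Figure D1:**
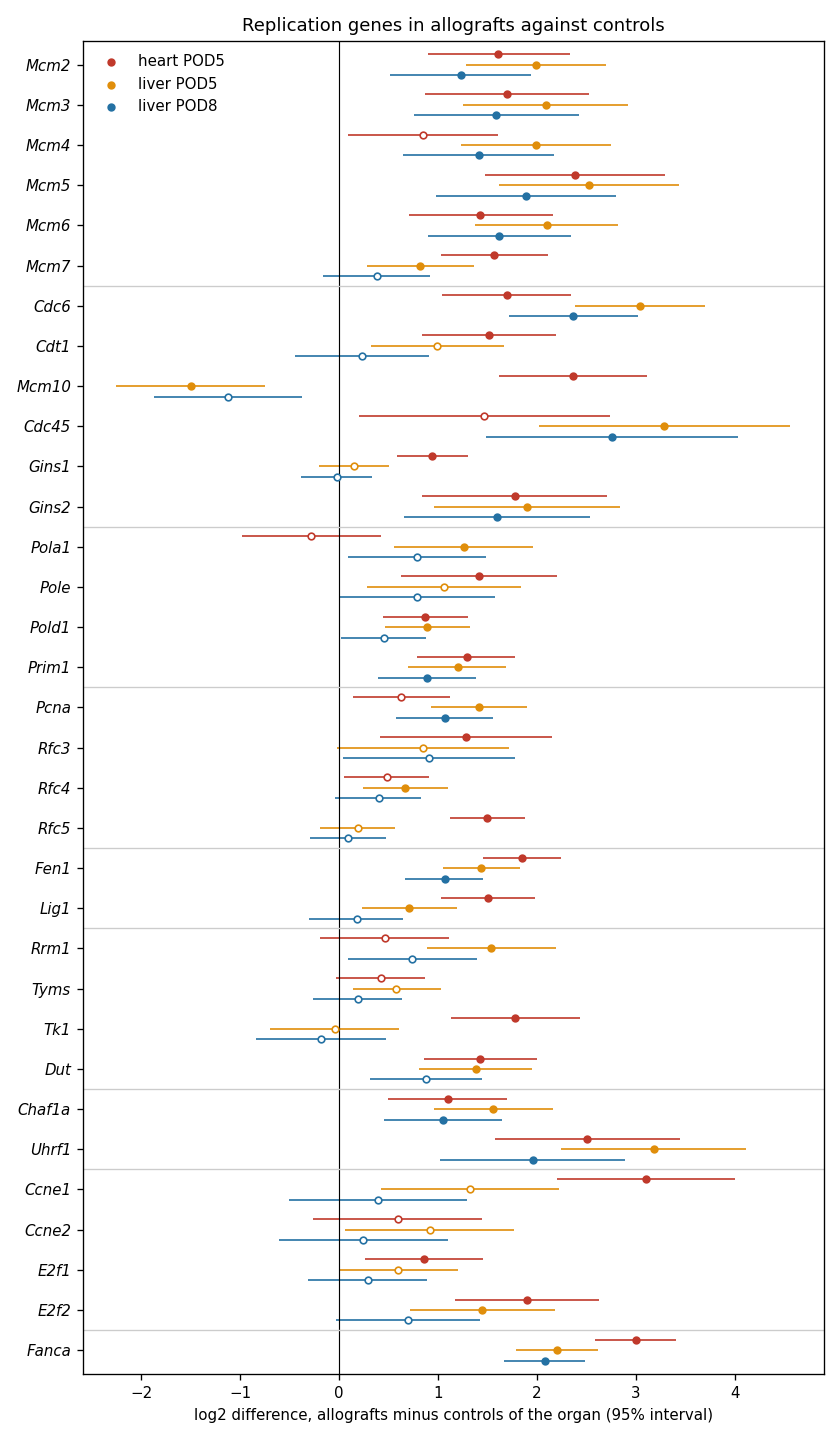
Log2 difference between allografts and controls (horizontal axis) for each of the 33 genes, grouped by role and separated by grey lines, in the cardiac POD5, hepatic POD5 and hepatic POD8 comparisons. Points are limma estimates from 3 arrays per group, bars are 95% intervals, and filled points were called at an adjusted P under 0.05. Most points lie to the right of 0, and Mcm10 lies right of 0 in the heart and left of 0 in the liver.

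The cardiac counts depended little on any 1 array. Leaving out each of the 6 cardiac arrays in turn gave 23 to 26 called genes, and 23 of the 25 were called in all 6 fits. E2f1 and Rfc3 lost the call in 5 fits each, with adjusted P up to 0.14 and 0.088. The hepatic counts depended more on single arrays and on the fit. They were 17 to 23 at POD5, with 16 of the 23 genes called in all 6 fits, and 9 to 14 at POD8, with 8 of the 14 kept (Mcm5, Mcm6, Cdc6, Cdc45, Pcna, Fen1, Uhrf1 and Fanca). The count of 9 at POD8 came without hepatic POD8 allograft 2, without POD8 allograft 3 and without hepatic control 1. With each hepatic comparison fitted on its own 6 arrays, 11 genes were called at POD5 and 5 at POD8. The share of all probes called in these fits was 3.17% and 5%, in place of 15.1% and 11.7% in the reported fit. The methods' t-test with Benjamini-Hochberg adjustment called 22 genes in the heart, 2 in hepatic POD5 grafts (Fen1 and Fanca) and 4 in POD8 grafts (Cdc6, Fen1, Dut and Fanca). On the slide that held both POD8 allografts and controls, 28 of the 33 genes had a higher mean in the 2 allografts, with a median log2 difference of 0.71. In this comparison of 2 arrays against 2, limma called 0 genes, and 13 had an unadjusted P under 0.05, against 22.5% of all probes.

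Promoters of genes called higher in all 3 comparisons are shown because the E2F factors, which drive transcription at the G1/S transition, are known to act on many replication genes. Windows from 250 bases before to 50 bases after the start of transcription came from RefSeq on the mouse build GRCm38.p6, and 29 of the 34 genes had an entry. An E2F motif, written as TTTCCCGC, TTTGGCGC, TTTCGCGC or TTTGCCGC on either strand, was found in 12 of the 29 genes (41.4%) and in 2.6% of all 27025 genes with an entry. It was present in 5 of the 10 genes with an entry among those called higher in all 3 comparisons, and in 7 of the other 18 with a probe (38.9%). The sequences run 5′ to 3′ on the strand of the gene, with the E2F motif in capitals.
Mcm3, chr1:20820263-20820562, minus strand: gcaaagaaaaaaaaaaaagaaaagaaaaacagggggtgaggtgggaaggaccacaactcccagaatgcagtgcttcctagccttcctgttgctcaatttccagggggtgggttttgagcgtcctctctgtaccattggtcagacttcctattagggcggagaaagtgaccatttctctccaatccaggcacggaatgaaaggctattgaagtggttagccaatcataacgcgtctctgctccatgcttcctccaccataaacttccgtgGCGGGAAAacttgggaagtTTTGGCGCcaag
Mcm5, chr8:75109259-75109558, plus strand: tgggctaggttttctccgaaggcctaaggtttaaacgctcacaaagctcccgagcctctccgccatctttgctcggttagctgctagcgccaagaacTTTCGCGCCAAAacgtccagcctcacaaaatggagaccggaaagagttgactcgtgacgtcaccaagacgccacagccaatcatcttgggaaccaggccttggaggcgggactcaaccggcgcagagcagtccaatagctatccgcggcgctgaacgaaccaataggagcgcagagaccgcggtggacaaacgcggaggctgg
Mcm6, chr1:128359656-128359955, minus strand: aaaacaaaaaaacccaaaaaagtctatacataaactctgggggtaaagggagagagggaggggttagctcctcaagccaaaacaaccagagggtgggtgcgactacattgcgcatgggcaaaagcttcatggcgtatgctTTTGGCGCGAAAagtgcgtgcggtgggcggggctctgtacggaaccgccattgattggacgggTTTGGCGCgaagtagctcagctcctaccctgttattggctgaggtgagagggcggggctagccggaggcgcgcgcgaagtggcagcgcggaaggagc
Cdc6, chr11:98907901-98908200, plus strand: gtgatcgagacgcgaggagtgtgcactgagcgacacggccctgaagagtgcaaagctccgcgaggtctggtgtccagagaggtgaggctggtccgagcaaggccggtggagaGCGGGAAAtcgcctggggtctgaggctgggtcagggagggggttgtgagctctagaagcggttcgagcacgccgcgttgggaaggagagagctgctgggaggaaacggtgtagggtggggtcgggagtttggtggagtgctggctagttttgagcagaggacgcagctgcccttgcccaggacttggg
Uhrf1, chr17:56304063-56304362, plus strand: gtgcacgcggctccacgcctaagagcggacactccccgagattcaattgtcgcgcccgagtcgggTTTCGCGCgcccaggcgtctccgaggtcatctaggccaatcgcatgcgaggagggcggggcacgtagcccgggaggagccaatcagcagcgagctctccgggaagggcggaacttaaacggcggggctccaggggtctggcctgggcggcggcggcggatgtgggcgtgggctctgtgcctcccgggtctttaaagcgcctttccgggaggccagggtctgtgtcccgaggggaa

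The places of these matches differed between the genes. Counting from 1 at the start of transcription, they began at 20 and 39 in Mcm3, after the start, and at -138 in Cdc6 and -185 in Uhrf1. Mcm5 had 2 overlapping matches, on opposite strands, at -153 and -149. Uhrf1 has another RefSeq start with a window of its own, which held no E2F motif. Mcm6 had 3, at -110, -106 and -47, of which the first pair overlapped. The CCAAT box (CCAAT on either strand) was found in 17 of the 29 genes (58.6%) and in 41.1% of all genes. The CHR element (TTTGAA on either strand), known from genes of mitosis, was found in 4 (13.8%) and in 20.2% of all genes. A match of letters is a description of the window and not evidence that a factor binds there.

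Among the MCM subunits, which form the ring of the helicase, 5 of 6 were higher in the heart, 6 of 6 in hepatic POD5 grafts and 5 of 6 at POD8. Mcm5 had the largest difference of the 6, averaged over the 3 comparisons. Its log2 signal was 11.39, 11.09 and 12.12 in the cardiac allografts and 9.33, 8.76 and 9.35 in the cardiac controls, a 5.23-fold difference (adjusted P = 0.0012). In the liver it read 10.92, 10.85 and 10.84 at POD5, 9.98, 10.04 and 10.67 at POD8, and 7.22, 8.97 and 8.82 in the controls. The groups did not overlap in any of these comparisons, and the dimmest array, hepatic control 1, stood well below the other controls. Mcm5 was 5.77-fold higher at POD5 (adjusted P = 0.0019) and 3.71-fold higher at POD8 (adjusted P = 0.012).

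Mcm7 had the smallest average difference of the MCM subunits. Its log2 signal was 11.90, 11.50 and 12.58 in the cardiac allografts against 10.51, 10.22 and 10.54 in the controls, a 2.97-fold difference (adjusted P = 6.3e-04). Its hepatic values were 11.74, 11.70 and 11.94 at POD5, 11.17, 11.21 and 11.70 at POD8, and 11.12, 11.07 and 10.73 in the controls. The allografts lay above the controls at both times, by 1.76-fold at POD5 (adjusted P = 0.045) and by a log2 difference of 0.38 at POD8 that was not called. The POD5 call of Mcm7 was lost in each of the 6 fits without 1 hepatic array, with adjusted P from 0.071 to 0.11.

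The other 4 subunits rose together in the liver. Mcm2, Mcm3, Mcm4 and Mcm6 were 3.98-fold, 4.25-fold, 3.97-fold and 4.27-fold higher at POD5, and 2.35-fold, 3.02-fold, 2.66-fold and 3.08-fold higher at POD8. In the heart Mcm2, Mcm3 and Mcm6 were 3.06-fold, 3.25-fold and 2.70-fold higher. Mcm4 overlapped there, at 12.20, 11.31 and 12.81 in the allografts and 11.39, 10.98 and 11.39 in the controls, and was not called (log2 difference 0.85, adjusted P = 0.088). At POD8 the calls of Mcm2, Mcm3 and Mcm4 were each lost in 3 of the 6 fits without 1 array, with adjusted P up to 0.11.

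The genes of helicase loading and activation were the most varied of the roles: 5 of 6 were higher in the heart, and 3 were higher and 1 was lower in hepatic POD5 grafts. Cdc6, the ATPase that loads the ring, read 7.52, 7.31 and 8.29 on the log2 scale in the cardiac allografts and 6.12, 5.71 and 6.21 in the controls, a 3.24-fold difference (adjusted P = 0.0013). Hepatic grafts gave 6.53, 6.23 and 7.16 at POD5 and 5.79, 5.85 and 6.26 at POD8. The hepatic controls, at 3.28, 3.57 and 3.93, were not well above background on any array, so Cdc6 was at least 4.95-fold higher at POD5 (adjusted P = 5.4e-05) and at least 3.1-fold higher at POD8 (adjusted P = 3.7e-04). These bounds set the dim group at the lowest signal well above background on each array, or at its own value where higher.

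Cdc45, a part of the working helicase, read 7.36, 7.70 and 7.95 in the cardiac allografts and 6.07, 6.15 and 6.39 in the controls, which did not overlap, and the log2 difference of 1.47 was not called (adjusted P = 0.080). The livers read 6.74, 6.87 and 6.95 at POD5, 6.04, 6.36 and 6.60 at POD8, and 1.71, 4.90 and 4.09 in the controls. Only 1 of the 3 controls was well above background, and their SD was 1.66. Cdc45 was called at POD5 (log2 difference 3.29, adjusted P = 0.0029) and at POD8 (2.76, adjusted P = 0.0096), in every fit without 1 array. These sizes are uncertain, since without 1 array the POD5 difference was 2.37 to 3.97 and the POD8 difference 1.84 to 3.45, each lowest without hepatic control 1 and highest without hepatic control 2. With normexp background correction Cdc45 differed by 1.23 and 0.85, and in the fits of each comparison alone both calls were lost (adjusted P = 0.11 and 0.14).

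Gins2, a subunit of the GINS complex, was 3.42-fold higher in the heart, 3.74-fold higher in hepatic POD5 grafts and 3.03-fold higher at POD8. Without 1 array its call was lost in 1 fit at POD5 and in 4 at POD8, with adjusted P up to 0.050 and 0.11. Gins1, another subunit, read 8.82, 9.25 and 9.12 in the cardiac allografts and 7.99, 8.02 and 8.35 in the controls, a 1.92-fold difference (adjusted P = 0.0012). In the liver its groups overlapped, at 9.35, 9.19 and 9.22 at POD5, 8.97, 9.02 and 9.23 at POD8, and 8.85, 9.12 and 9.31 in the controls. Cdt1, the partner of Cdc6, was 2.86-fold higher in the heart. Its hepatic log2 differences of 0.99 and 0.23 were not called (adjusted P = 0.051 and 0.68).

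Mcm10, which despite its name is no subunit of the ring, was the only gene of the 33 called in opposite directions. It read 9.99, 9.64 and 10.77 in the cardiac allografts and 7.84, 7.36 and 8.10 in the controls, a 5.16-fold difference (adjusted P = 3.5e-04). In the liver it read 12.01, 12.83 and 12.29 at POD5, 12.85, 12.21 and 13.20 at POD8, and 13.56, 14.02 and 14.03 in the controls. All 6 hepatic allografts lay below all 3 controls. Mcm10 was 2.82-fold lower at POD5 (adjusted P = 0.013), and at POD8 the log2 difference of -1.12 missed the threshold (adjusted P = 0.054). The POD8 difference passed it under several other settings, among them slide as a random block (-1.15, adjusted P = 0.047) and without POD8 allograft 3 (-1.35, adjusted P = 0.046). The POD5 call was lost without hepatic POD5 allograft 1 (adjusted P = 0.056) and in the fit of the 6 arrays alone (adjusted P = 0.055). Mcm10 had a single probe, so no other probe could be set beside it. Whether the hepatic signal of this probe comes from Mcm10 alone could not be checked.

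The Mcm10 promoter window is shown because the gene stood apart. It held no complete E2F motif, but it ends in tttggcg, all but the last letter of TTTGGCGC. A match running over the edge of the window could not be found by the search. An E2F motif was found in 12 of the 29 genes with an entry, so its absence is not particular to Mcm10. The capitals mark the 3 CCAAT boxes of the window, which begin at -98, -23 and 32.
Mcm10, chr2:5012742-5013041, minus strand: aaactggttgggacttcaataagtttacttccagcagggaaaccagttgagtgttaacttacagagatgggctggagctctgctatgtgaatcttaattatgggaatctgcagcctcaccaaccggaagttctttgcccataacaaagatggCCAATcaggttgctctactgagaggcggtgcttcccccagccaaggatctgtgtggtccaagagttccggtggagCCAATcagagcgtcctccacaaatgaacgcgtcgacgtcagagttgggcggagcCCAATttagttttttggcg

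Of the polymerases and primase, 3 of 4 genes were higher in the heart, 3 of 4 in hepatic POD5 grafts and 1 of 4 at POD8. Prim1, the catalytic subunit of primase, was the only gene of this role called in all 3 comparisons. Its log2 signal was 10.42, 10.43 and 11.00 in the cardiac allografts and 9.40, 8.97 and 9.63 in the controls, a 2.44-fold difference (adjusted P = 0.0013). Its hepatic values were 10.16, 10.10 and 9.85 at POD5, 9.51, 9.59 and 10.09 at POD8, and 8.60, 8.93 and 8.99 in the controls. These groups did not overlap, and Prim1 was 2.29-fold higher at POD5 (adjusted P = 0.0043) and 1.85-fold higher at POD8 (adjusted P = 0.026), the latter call being lost in 3 of 6 fits without 1 array, with adjusted P up to 0.092.

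Pola1, the catalytic subunit of polymerase alpha, was the only gene whose mean was lower in the cardiac allografts than in their controls. It read 9.51, 8.56 and 9.88 in the allografts and 9.63, 9.44 and 9.71 in the controls, which overlapped (log2 difference -0.28, adjusted P = 0.58). Without cardiac allograft 2, its lowest array, the difference was 0.10. Hepatic grafts gave 9.10, 9.13 and 9.24 at POD5, 8.49, 8.64 and 8.92 at POD8, and 7.30, 8.01 and 8.38 in the controls, with no overlap. It was 2.39-fold higher at POD5 (adjusted P = 0.022), a call lost in 4 of 6 fits without 1 array with adjusted P up to 0.077, and its POD8 log2 difference of 0.79 was not called.

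Pold1, the catalytic subunit of polymerase delta, was 1.83-fold higher in the heart and 1.85-fold higher in hepatic POD5 grafts, and its POD8 log2 difference of 0.45 was not called. Pole, the catalytic subunit of polymerase epsilon, was 2.66-fold higher in the heart, and its hepatic log2 differences of 1.06 and 0.79 were not called (adjusted P = 0.067 and 0.18).

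Of the clamp and its loader, 2 of 4 genes were higher in the heart, 2 of 4 in hepatic POD5 grafts and 1 of 4 at POD8. Pcna, the sliding clamp, read 13.60, 13.55 and 14.01 in the cardiac allografts and 13.16, 12.86 and 13.24 in the controls, with a log2 difference of 0.63 that missed the threshold (adjusted P = 0.054). The livers read 12.91, 12.82 and 13.20 at POD5, 12.56, 12.62 and 12.74 at POD8, and 11.02, 11.81 and 11.87 in the controls. Neither hepatic comparison overlapped, and Pcna was 2.67-fold higher at POD5 (adjusted P = 0.0014) and 2.10-fold higher at POD8 (adjusted P = 0.0092).

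Rfc5, a subunit of the clamp loader, was called in the heart and not in the liver. It read 10.52, 10.82 and 11.06 in the cardiac allografts and 9.36, 8.96 and 9.57 in the controls, a 2.83-fold difference (adjusted P = 7.0e-05). In the liver it read 10.36, 10.33 and 10.17 at POD5, 10.09, 10.16 and 10.33 at POD8, and 10.15, 10.14 and 10.01 in the controls. The POD5 allografts lay just above the controls and the POD8 allografts overlapped them. The hepatic log2 differences were 0.19 and 0.09, with 95% intervals from -0.19 to 0.57 and from -0.29 to 0.47.

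Rfc4, another loader subunit, read 10.35, 10.80 and 10.89 in the cardiac allografts and 10.12, 10.08 and 10.39 in the controls, which overlapped, and was not called (log2 difference 0.48, adjusted P = 0.088). Its hepatic values were 10.10, 10.09 and 9.97 at POD5, 9.59, 9.63 and 10.10 at POD8, and 9.10, 9.66 and 9.37 in the controls. The 1.60-fold difference at POD5 was called (adjusted P = 0.040) and was lost in 5 of 6 fits without 1 array, with adjusted P up to 0.13. Rfc3, also of the loader, was 2.43-fold higher in the heart (adjusted P = 0.031), and its hepatic groups overlapped at both times.

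Both enzymes of the lagging strand were higher in the heart and in hepatic POD5 grafts. Fen1, the flap nuclease, read 10.00, 9.84 and 10.57 in the cardiac allografts and 8.37, 8.11 and 8.39 in the controls, a 3.60-fold difference (adjusted P = 2.1e-05). Hepatic grafts gave 9.27, 9.20 and 9.57 at POD5, 8.96, 8.91 and 9.05 at POD8, and 7.87, 7.95 and 7.90 in the controls. The hepatic controls were tightly grouped (SD 0.04), and Fen1 was 2.71-fold higher at POD5 (adjusted P = 3.0e-04) and 2.10-fold higher at POD8 (adjusted P = 0.0026), in every fit without 1 array.

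Lig1, the ligase that seals the fragments, read 11.82, 11.40 and 12.28 in the cardiac allografts and 10.47, 10.05 and 10.47 in the controls, a 2.84-fold difference (adjusted P = 3.6e-04). The livers read 11.58, 11.77 and 11.94 at POD5, 11.05, 11.15 and 11.50 at POD8, and 11.16, 11.07 and 10.94 in the controls. The 1.63-fold difference at POD5 lay just inside the threshold (adjusted P = 0.049) and was lost in all 6 fits without 1 array, with adjusted P from 0.071 to 0.13. At POD8 the groups overlapped.

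Of the genes of nucleotide supply, 2 of 4 were higher in the heart, 2 of 4 in hepatic POD5 grafts and 0 of 4 at POD8. Dut, which removes dUTP, read 12.03, 12.17 and 12.82 in the cardiac allografts and 10.83, 10.89 and 11.00 in the controls, a 2.69-fold difference (adjusted P = 0.0016). In the liver it read 11.25, 11.28 and 12.25 at POD5, 10.96, 11.20 and 11.11 at POD8, and 10.18, 10.34 and 10.11 in the controls. Dut was 2.61-fold higher at POD5 (adjusted P = 0.0043), and at POD8, with no overlap, its log2 difference of 0.88 fell just outside the threshold.

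Tk1, the thymidine kinase of the salvage pathway, was higher in the heart and not in the liver. It read 10.21, 10.70 and 10.99 in the cardiac allografts and 8.92, 8.43 and 9.20 in the controls, a 3.44-fold difference (adjusted P = 9.7e-04). Its hepatic values were 11.44, 11.55 and 11.10 at POD5, 10.83, 11.21 and 11.62 at POD8, and 10.87, 11.66 and 11.68 in the controls. These groups overlapped throughout, and the 95% interval of the log2 difference was -0.70 to 0.61 for POD5 and -0.84 to 0.47 for POD8.

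Tyms, thymidylate synthase, was called in no comparison. It read 11.39, 11.86 and 11.72 in the cardiac allografts against 11.27, 10.87 and 11.56 in the controls, and 11.20, 10.97 and 11.05 at POD5, 10.56, 10.62 and 10.86 at POD8 and 10.17, 10.75 and 10.55 in the hepatic controls. Its log2 differences were 0.42, 0.58 and 0.19 (adjusted P = 0.15, 0.075 and 0.59). Rrm1, the large subunit of ribonucleotide reductase, was 2.91-fold higher in hepatic POD5 grafts (adjusted P = 0.0048). Its cardiac log2 difference of 0.46 and its POD8 difference of 0.74 were not called.

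Both chromatin factors of the fork were called higher in all 3 comparisons. Uhrf1, needed to maintain DNA methylation on the new strand, had the largest difference of all 33 genes, averaged over the 3 comparisons. It read 10.31, 10.07 and 10.94 in the cardiac allografts and 8.18, 7.42 and 8.18 in the controls, a 5.70-fold difference (adjusted P = 0.0011). Hepatic grafts gave 9.59, 9.73 and 10.83 at POD5, 8.38, 8.50 and 9.62 at POD8, and 6.31, 7.27 and 7.04 in the controls. Uhrf1 was 9.04-fold higher at POD5 (adjusted P = 5.3e-04) and 3.89-fold higher at POD8 (adjusted P = 0.012), with no overlap.

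Chaf1a, the large subunit of the assembly factor that places histones on new DNA, read 8.46, 8.12 and 9.10 in the cardiac allografts and 7.56, 7.25 and 7.57 in the controls, a 2.14-fold difference (adjusted P = 0.010). The livers read 8.33, 8.21 and 8.64 at POD5, 7.57, 7.64 and 8.44 at POD8, and 6.85, 7.01 and 6.62 in the controls. It was 2.96-fold higher at POD5 and 2.07-fold higher at POD8, again with no overlap. With slide as a random block the cardiac call of Chaf1a was lost (log2 difference 1.04, adjusted P = 0.068). The POD8 call was lost in 3 of 6 fits without 1 array, with adjusted P up to 0.095.

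Of the G1/S regulators, 3 of 4 were higher in the heart, 1 of 4 in hepatic POD5 grafts and 0 of 4 at POD8. Ccne1, cyclin E1, had the largest cardiac difference of the 33 genes. It read 11.07, 11.31 and 11.91 in the cardiac allografts and 8.56, 7.92 and 8.51 in the controls, an 8.56-fold difference (adjusted P = 2.0e-04). In the liver it read 10.69, 10.40 and 10.83 at POD5, 9.27, 9.43 and 10.42 at POD8, and 8.37, 9.94 and 9.64 in the controls. The POD5 allografts lay above the controls, and the log2 difference of 1.32 fell just outside the threshold (adjusted P = 0.051). At POD8 the groups overlapped (log2 difference 0.39).

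E2f1, an activating E2F factor, read 7.29, 7.92 and 7.79 in the cardiac allografts and 7.0, 6.42 and 7.01 in the controls, a 1.81-fold difference (adjusted P = 0.035) that was lost in 5 of 6 fits without 1 array. Its hepatic values were 7.54, 7.68 and 8.42 at POD5, 7.22, 7.57 and 7.92 at POD8, and 7.44, 7.28 and 7.12 in the controls, with no call (log2 differences 0.60 and 0.29). E2f2, of the same family, was 3.73-fold higher in the heart and 2.73-fold higher in hepatic POD5 grafts. Its POD5 call was lost without hepatic POD5 allograft 3 (adjusted P = 0.050), and its POD8 log2 difference of 0.70 was not called. Ccne2, cyclin E2, was dim: none of the 3 hepatic controls and 1 of the 3 POD8 allografts was well above background, and it was called in no allograft comparison.

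Fanca, of the Fanconi anaemia pathway that repairs DNA crosslinks met by the fork, had the smallest P-value of the list in each of the 3 comparisons. It read 9.55, 9.97 and 9.98 in the cardiac allografts and 6.99, 6.43 and 7.07 in the controls, an 8-fold difference (adjusted P = 7.4e-07). Hepatic grafts gave 8.33, 8.31 and 8.20 at POD5, 7.99, 8.04 and 8.43 at POD8, and 6.06, 6.08 and 6.09 in the controls. The allografts lay far above every control, and Fanca was 4.61-fold higher at POD5 (adjusted P = 1.9e-05) and 4.22-fold higher at POD8 (adjusted P = 3.3e-05). The other Fanca probe was well above background on 0 of the 15 arrays and gives no second reading.

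**Figure D2:**
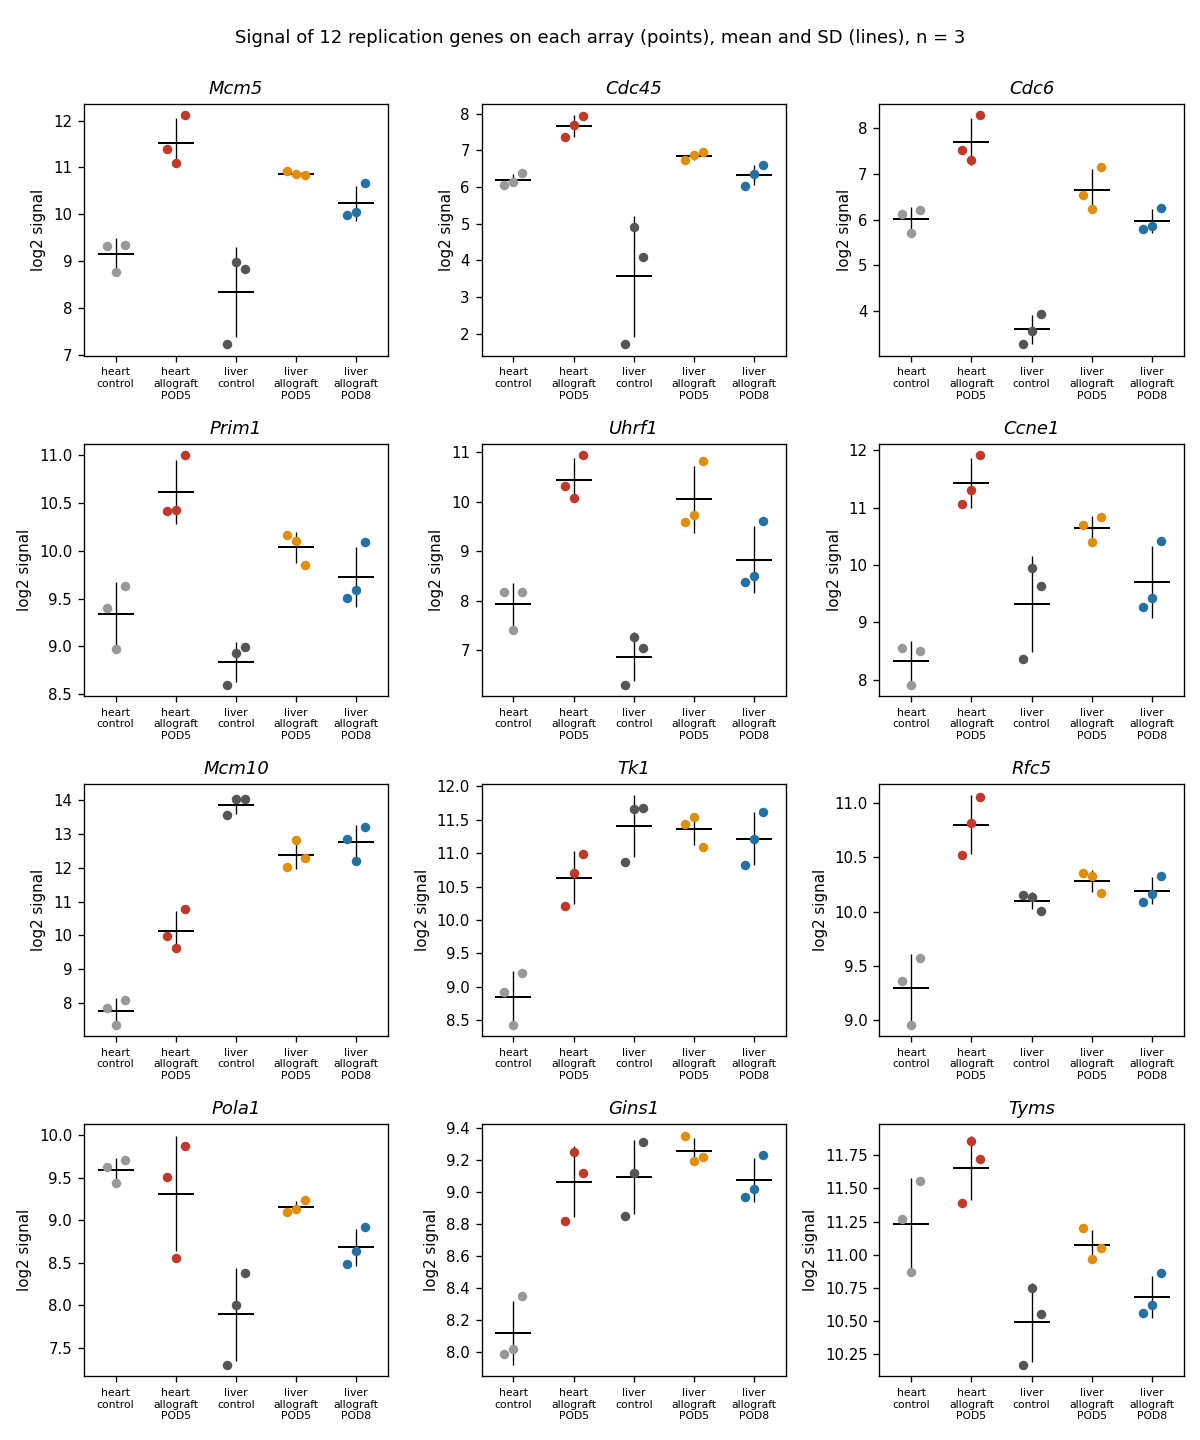
Normalized log2 signal (vertical axis) of 12 genes on each of the 15 arrays. Points are arrays, horizontal lines are group means and bars are SD (n = 3). Mcm5 and Uhrf1 lie higher in the allografts of both organs, Tk1 and Rfc5 were called higher only in those of the heart, and Mcm10 is higher in cardiac and lower in hepatic allografts than in the controls.

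The cardiac and hepatic POD5 differences were compared directly, as the log2 difference in the heart minus that in the liver. This interaction was called for 6 of the 33 genes, against 18.0% of all probes (8.49% higher and 9.54% lower). The share among the genes is near that of all probes, so the count is not particular to them. The median was -0.02 over the genes and 0.08 over all probes. Larger in the heart were Mcm10 (3.86, 95% interval 2.81 to 4.92, adjusted P = 5.6e-04), Tk1 (1.83, 0.90 to 2.76, adjusted P = 0.013), Rfc5 (1.32, 0.78 to 1.85, adjusted P = 0.0047) and Gins1 (0.79, 0.29 to 1.29, adjusted P = 0.035). Larger in the liver were Pola1 (-1.54, -2.52 to -0.55, adjusted P = 0.036) and Cdc6 (-1.35, -2.27 to -0.43, adjusted P = 0.046). The hepatic difference of Cdc6 rests on controls near background.

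Mcm10, Tk1 and Rfc5 kept this call in all 12 fits without 1 array and with slide as a random block. Gins1, Pola1 and Cdc6 lost it in 8 of the 12 fits each and with slide as a block (adjusted P = 0.064, 0.090 and 0.072). The other 27 genes were not shown to differ between the organs. The organs also differed in strains, graft site and slides, which cannot be told apart.

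The controls of the organs also differed. As cardiac minus hepatic controls, 14 of the 33 genes were called higher and 6 lower, against 54.0% of all probes called, 27.6% higher and 26.4% lower. Counting both directions, the share among the genes is near that of all probes, so this count is not particular to them. The 4 genes with the larger cardiac allograft difference, Mcm10, Tk1, Rfc5 and Gins1, were all among the 6 that were lower in the cardiac than in the hepatic controls, by log2 differences of -6.11, -2.56, -0.80 and -0.98. For Gins1 this holds on its brightest probe only, as the other probe was not called (-0.21, adjusted P = 0.62). Pola1 and Cdc6, with the larger hepatic difference, were higher in the cardiac controls, by 1.70 and by at least 3.2-fold. These comparisons share the control arrays with the interaction, so they are given side by side only. Mcm10 was 68.9-fold higher in the hepatic than in the cardiac controls. This rests on its single probe, and whether the hepatic signal comes from Mcm10 alone was not tested. Among the allografts its mean log2 signal was 10.13 ± 0.58 in the heart and 12.38 ± 0.42 in hepatic POD5 grafts (SD, n = 3).

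Hepatic allografts at POD8 were set against those at POD5. No gene of the list was called (0 higher and 0 lower by limma, against 0.0293% of all probes), and 9 had an unadjusted P under 0.05, against 9.28% of probes. The means were lower at POD8 in 31 of the 33 genes, as in 49.7% of all probes, with a median log2 difference of -0.47 over the genes and 0.00 over all probes. All 3 POD8 allografts lay below all 3 POD5 allografts in 14 genes, as in 10.4% of probes. The methods' t-test, run on those log2 values and assuming equal spread, called 0 genes after Benjamini-Hochberg adjustment, against 0.00244% of all probes. The standardized fold change (SFC) of the study divides the difference of group medians by the spread among 1000 probes of like brightness. After Benjamini-Hochberg adjustment SFC called 4 genes lower at POD8, Mcm2, Cdt1, Uhrf1 and Ccne1, against 1.74% of all probes.

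The 9 genes with an unadjusted P under 0.05 were Mcm2, Cdc6, Cdt1, Pold1, Lig1, Rrm1, Uhrf1, Ccne1 and E2f2. Uhrf1 had the widest gap, at 9.59, 9.73 and 10.83 at POD5 and 8.38, 8.50 and 9.62 at POD8, which overlapped (log2 difference -1.22, 95% interval -2.15 to -0.28, adjusted P = 0.41). Ccne1 followed, with a log2 difference of -0.93 (interval -1.83 to -0.03). Rrm1 did not overlap, at 10.59, 10.54 and 11.19 at POD5 and 9.77, 9.82 and 10.31 at POD8, a log2 difference of -0.80 (interval -1.45 to -0.15, adjusted P = 0.43). Mcm10 and Rfc3 were the genes with a higher mean at POD8, by 0.38 and 0.06.

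**Figure D3:**
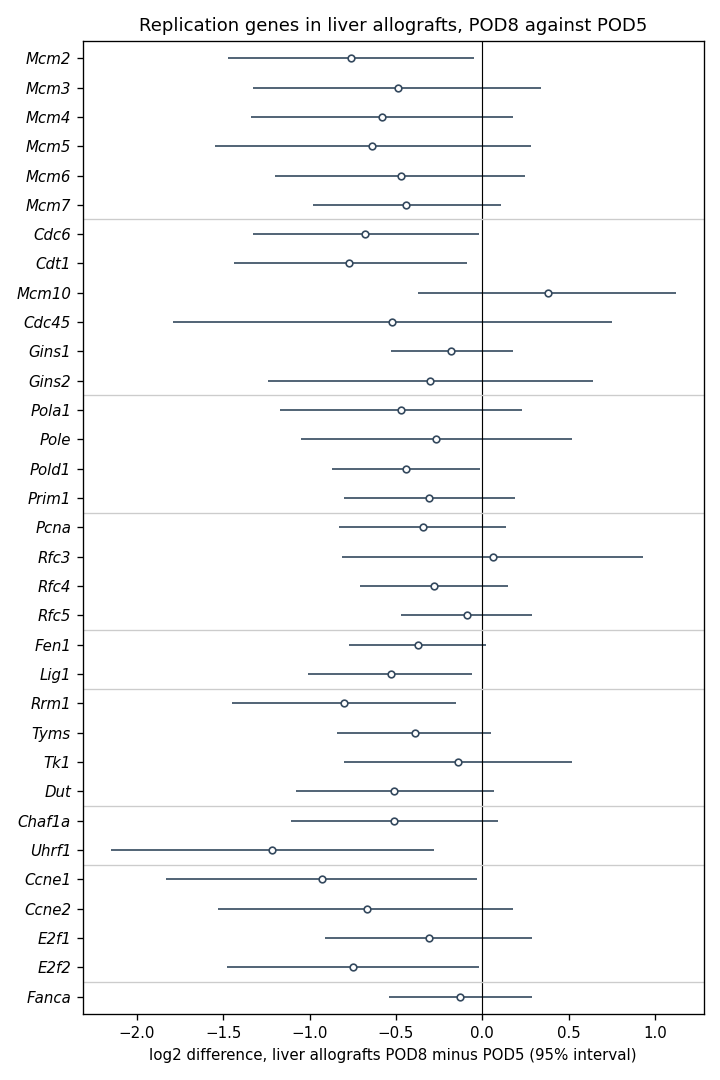
Log2 difference between hepatic POD8 and POD5 allografts (horizontal axis) for each of the 33 genes. Points are limma estimates from 3 arrays per group and bars are 95% intervals, all points being open because no gene was called. The points lie left of 0 in 31 genes.

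In some groups the arrays kept much the same order across the genes. POD8 allograft 3, alone on its slide, was the highest of the group in 31 of the 33 genes, and POD8 allograft 1, on the slide of the controls, was the lowest in 30. Such an order was also present within a slide, where cardiac allograft 3 was the highest of its group in 28 genes and cardiac control 3 in 26. The order varied more among hepatic POD5 allografts, where allograft 3 was the highest in 21 genes and the lowest in 9. Hepatic controls 1, 2 and 3 were the highest in 6, 13 and 14 genes, and control 1 was the lowest in 24. Without POD8 allograft 3 the median time difference was -0.59, and without POD8 allograft 1 it was -0.36. In each of the 6 fits without 1 array, 30 to 32 of the genes lay below 0. The POD5 and POD8 allografts shared no slide, so slide and day cannot be told apart.

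For the 10 genes with more than 1 probe, the next brightest probe gave the same call in 8 in the heart, 7 in hepatic POD5 grafts and 8 at POD8. The differing genes were Cdc6 and Fanca in the heart and at POD8, and Pold1, Ccne2 and Fanca at POD5. The other Cdc6 probe had log2 differences of 0.92, 2.71 and 1.98 and was called at hepatic POD5 only. The other Ccne2 probe, well above background on 9 of 15 arrays, was 2.15 higher at hepatic POD5 (adjusted P = 0.015). In the interaction the other Ccne1 probe was called (1.70, adjusted P = 0.028) where the brighter probe was not (1.78, adjusted P = 0.055). The other probes of Gins1 (0.34, adjusted P = 0.64) and Cdc6 (-1.79, adjusted P = 0.21) were not called there. Between the control organs the next brightest probe gave the same call in 7 of the 10 genes, and Gins1, Ccne1 and Fanca differed.

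Other genes of the replication fork were counted from a wider list. The counts of this and the following lists are to be read against the shares of all probes called, which were 13.3% higher and 15.3% lower in the heart, 8.12% and 7.02% in hepatic POD5 grafts, and 7.02% and 4.65% in POD8 grafts. Of 40 other genes of the fork, such as the origin recognition and single-strand binding subunits, 18 were higher and 3 lower in the heart, 20 higher and 0 lower in hepatic POD5 grafts, and 10 higher and 0 lower at POD8, with medians of 0.59, 0.70 and 0.30. Asf1b, a histone chaperone, was higher in all 3 comparisons, by 2.18, 2.79 and 1.88. Dna2, a nuclease of the lagging strand, was higher in the heart by 2.62 (adjusted P = 9.5e-06), and its hepatic differences of -0.07 and -0.10 were not called. Orc5, of the origin recognition complex, was lower in the heart by a log2 difference of -0.89 (adjusted P = 0.0052).

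Of 23 other G1/S control genes, 6 were higher and 2 lower in the heart, 10 higher and 1 lower in hepatic POD5 grafts, and 6 higher and 0 lower at POD8. Rbl1, the pocket protein p107, was higher in all 3 comparisons, by 1.93, 2.20 and 1.87. E2f4, an E2F factor that acts mostly in repression, was higher in the heart (1.60) and in hepatic POD5 grafts (0.94). Cdkn1c, an inhibitor of cyclin-dependent kinases, was lower in the heart (-3.06, adjusted P = 4.2e-05) and in hepatic POD5 grafts (-1.12, adjusted P = 0.040).

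Of 13 other genes of nucleotide supply, 7 were higher and 1 lower in the heart, 4 higher and 2 lower in hepatic POD5 grafts, and 2 higher and 0 lower at POD8. Samhd1, which breaks down deoxynucleotides and is known to be strongly expressed in myeloid cells, was higher in all 3 comparisons, by 3.37, 2.47 and 2.78. Shmt1, an enzyme of one-carbon metabolism, was higher in the heart (2.57), and its hepatic differences of -0.29 and -0.09 were not called. Rrm2b, the p53-induced small subunit of ribonucleotide reductase, was lower in the heart (-1.48, adjusted P = 0.0074). Among 18 genes of replication-linked repair, 8 were higher in the heart, 7 in hepatic POD5 grafts and 7 at POD8, with 0, 0 and 1 lower. Exo1, a nuclease of mismatch repair, was higher in all 3, by 1.62, 3.05 and 2.25.

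Genes of mitosis, which follow replication in the cycle, were also higher: 6 of 10 in the heart, 9 of 10 in hepatic POD5 grafts and 9 of 10 at POD8, with medians of 1.52, 2.95 and 1.91. In the hepatic controls, 6 of these 10 genes were well above background on all arrays and 1 on none, which limits the hepatic sizes. Their mean log2 signal was 5.98 in hepatic control 1, and 7.36 and 7.35 in controls 2 and 3. Plk1, a mitotic kinase, was higher by 1.99, 3.00 and 1.91, and Cenpa, the centromeric histone, by 0.89, 2.02 and 1.09. Bub1, of the spindle checkpoint, was higher in the heart (2.17), and its hepatic differences of 0.39 and 0.17 were not called. Between POD8 and POD5 all 10 means were lower, with a median of -0.92 and 0 called, where 6 had an unadjusted P under 0.05.

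Markers of T cells were also higher in the allografts of both organs. In all, 10 of 10 were higher in the heart, 9 of 10 in hepatic POD5 grafts and 9 of 10 at POD8, with median log2 differences of 4.42, 4.46 and 3.76. Of the 10 markers, 6 were well above background on all hepatic control arrays and 2 on none. The mean log2 signal over the 10 markers ranged from 10.49 to 11.05 in the cardiac allografts, 6.38 to 6.84 in the cardiac controls, 9.87 to 10.46 in the hepatic POD5 allografts, 9.56 to 9.88 at POD8 and 5.46 to 6.11 in the hepatic controls. Cd8a, the co-receptor of cytotoxic T cells, was not well above background in the hepatic controls and at least 104-fold higher at POD5. The same mean over the 33 replication genes ranged from 10.00 to 10.66, 8.54 to 9.03, 9.78 to 10.00, 9.19 to 9.75 and 8.16 to 8.76 in these groups. POD8 allograft 3 had the highest replication gene mean of its group (9.75) and the lowest T cell marker mean (9.56). In each other group the same array was the highest in both lists. An association between the lists was not tested. Of the 10 T cell markers, 9 had a lower mean at POD8 than at POD5, with a median of -0.55 and 0 called.

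Markers of B cells, macrophages and erythroid precursors were counted in the same way. Of 8 B cell markers, 1 was higher in the heart, 0 in hepatic POD5 grafts and 1 at POD8, shares near those of all probes. Of 9 macrophage markers, 1 was higher and 1, Mrc1, lower in the heart, 3 were higher in hepatic POD5 grafts and 7 at POD8, with a mean log2 signal of 9.41 to 11.25 in the hepatic controls, 11.78 to 12.12 in POD5 grafts and 12.20 to 12.34 in POD8 grafts. Between POD8 and POD5, all 9 had a higher mean at POD8, with a median log2 difference of 0.43. By limma 0 of them were called, and 0 had an unadjusted P under 0.05. Of 7 erythroid precursor markers, 0 were higher and 1, 2 and 1 were lower in the 3 comparisons. Of the 8 cardiomyocyte markers, 3 were lower in the cardiac allografts, Tnni3, Ryr2 and Pln, and 7 had a lower mean, with a median log2 difference of -0.87. Their mean log2 signal was 15.21 to 15.98 in the cardiac allografts and 16.37 to 16.66 in the controls. Of the 6 hepatocyte markers 0 were called by limma in either hepatic comparison, and 0 had an unadjusted P under 0.05. The part of any of these cell types in the replication results was not tested.

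**Figure D4:**
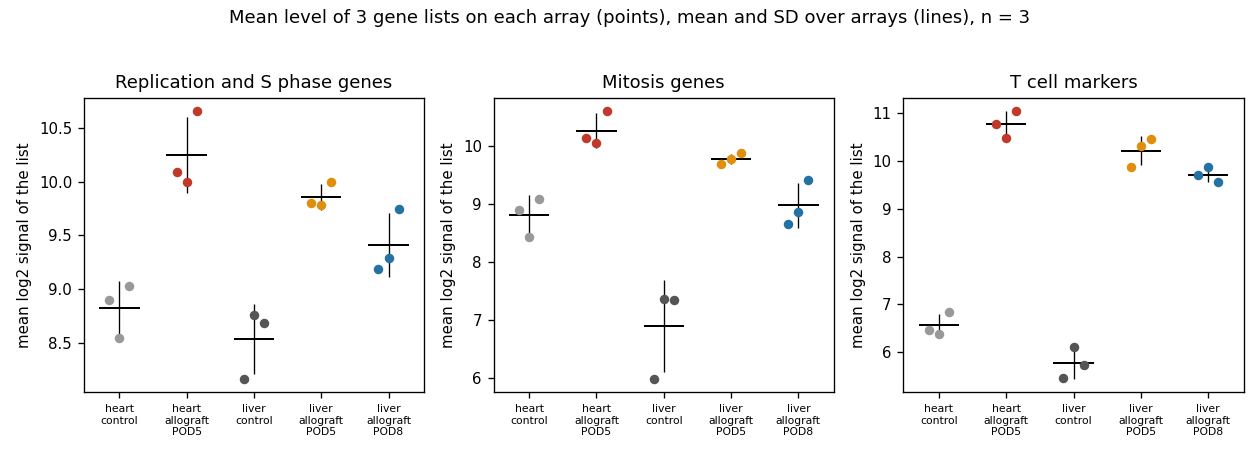
Mean log2 signal per array (vertical axis) over the 33 replication genes, the 10 mitosis genes and the 10 T cell markers, in the 5 groups. Points are arrays, horizontal lines are group means and bars are SD (n = 3). In all 3 lists every allograft array lies above every control array of its organ.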

How the data were processed

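RNA of 15 mouse grafts and control organs was measured on single-colour Agilent arrays, and the authors deposited the scanner output of Agilent Feature Extraction 10.5.1.1. The intensity used was the processed signal, which the authors' scanner software had already corrected for background. Control spots and spots marked as outliers were left out, spots of a probe were averaged as log2 values, and the log2 values were quantile normalized over the 15 arrays with limma 3.58.1 (R 4.3.3). A limma fit of 5 group means gave each difference, with Benjamini-Hochberg adjustment over 41003 probes (171 of 41174 had an outlier) and calls at an adjusted P under 0.05. No saturated spot was found. The files held no gene name, so probes were named through their accession with RefSeq (GRCm38.p6), which matched 26690 probes (64.8%). Tables and plots used Python 3.11.15, pandas 2.3.3 and matplotlib 3.10.9, and the code was tested on simulated data.

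The genes and lists were chosen with earlier results of these data known. Members with array values in the text were, by rule, those with the largest and smallest differences per role and those with an organ difference. Array values of Mcm4 and Rrm1 were added after their values were seen. The number of arrays, 3 per group, limits the precision. Replicate arrays correlated at 0.956 to 0.994 and none were identical. Replicate numbers did not pair the samples. The alternatives were scaling to the 75th percentile, normexp background correction of median signals (offset 50), a filter on signal above background, the median over probes, trend and robust fits, fits of each comparison alone, slide as a random block, the replicate number as a block, the methods' t-test, the standardized fold change (SFC) of the study and leaving out each array.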

Additional observations from a re-analysis of the deposited data

Results flagged for a closer look

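The difference between allografts and controls at POD5 differed between heart and liver, by the limma test of the interaction, in 6 of the 33 replication genes, against 18.0% of all probes, a share near that of the genes. As the log2 difference in the heart minus that in the liver, the values were 3.86 for Mcm10, 1.83 for Tk1, 1.32 for Rfc5, 0.79 for Gins1, -1.35 for Cdc6 and -1.54 for Pola1. Mcm10, Tk1 and Rfc5 kept the call in all 12 fits without 1 array and with slide as a random block, and Gins1, Pola1 and Cdc6 each lost it in 8 of the 12 and with the slide block. For Mcm10, read on a single probe, the cardiac allografts lay above and the hepatic allografts below all of their controls. For Cdc6 the hepatic controls were not well above background, so its value depends on signal that is only bounded. The organs differed in strains and slides, whose part in these differences was not tested. With 3 arrays in a group, single arrays could not be tested as outliers.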

How the results depend on the processing

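The direction of every called difference of the 33 genes in the 3 allograft comparisons held under the alternatives run. With each comparison fitted alone, 11 genes were called in hepatic POD5 grafts and 5 at POD8, against 3.17% and 5% of all probes. Of these genes, 10 and 4 were among those called before. In the heart, with quantiles of its own, 26 genes were called, against 31.5% of all probes. The methods' t-test with adjustment called 22, 2 and 4 genes in the heart and in hepatic POD5 grafts and POD8, against 25.7%, 0.563% and 2.01% of all probes. With the Bonferroni method of the study it called 0, 1 and 0, against 0.0463%, 0.0146% and 0.0341%. The SFC of the study called 2 (Ccne1 and Fanca), 7 and 0 genes after adjustment, against 2.08%, 2.8% and 2.72%. After Bonferroni it called 0, 0 and 0, against 0.588%, 0.841% and 0.861%. Between the control organs SFC called 1, Mcm10, against 1.45% after Bonferroni. The slide that held both POD8 allografts and controls gave 0 calls, an alternative chosen after seeing the data. Without 1 array the counts were 23 to 26 in the heart, 17 to 23 in hepatic POD5 grafts, 9 to 14 at POD8, 0 to 0 between POD8 and POD5, 3 to 7 in the interaction and 16 to 20 between control organs. The interaction count of 3 came without cardiac control 1 and without hepatic POD5 allograft 3. With slide as a random block the counts were 21, 19, 16 and 0, and 3 in the interaction. The shares of all probes called were then 17.6%, 8.74%, 13.6% and 0.0146%, and 11.7% in the interaction. With the replicate number as a block, although the numbers did not pair the samples (correlations of deviations from -0.123 to 0.16), they were 27, 25, 17 and 0, and 8 and 23 in the interaction and between control organs.

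Scaling to the 75th percentile moved the median over all probes to 0.47 in the heart, -0.37 and -0.46 in hepatic POD5 grafts and POD8, and to -0.14, 0.64 and -0.75 in the time, interaction and control comparisons. The share of called probes that were higher became 73.6% in place of 46.4% in the heart, 32.2% in place of 53.6% and 20.7% in place of 60.2% in the liver, 80.5% in place of 47.1% in the interaction and 31.6% in place of 51.1% between controls. The members' medians moved to 1.41, 1.27 and 0.80. With the filter on signal, 28767 probes were tested and 40.0%, 20.3% and 16.6% were called in the 3 allograft comparisons.

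Values that changed sign belonged to uncalled differences. Under the 75th percentile Rfc5 was 0.00 and Lig1 -0.02 at POD8, and Ccne1 was -0.22 there by SFC. On the shared slide Cdt1 was -0.25, Gins1 0.01, Rfc5 -0.02 and Lig1 -0.02, and with the median over probes Gins1 was 0.48. Without 1 array Pola1 ranged from -0.56 to 0.10 in the heart, Tk1 from -0.31 to 0.10 in hepatic POD5 grafts, and at POD8 Gins1 from -0.14 to 0.09, Tk1 from -0.45 to 0.01, Cdt1 from -0.14 to 0.50 and Ccne1 from -0.08 to 0.70. The cause was not tested. Mcm10 at POD8 (-1.12, adjusted P = 0.054) was called lower under the 75th percentile (-1.50, adjusted P = 0.0087), normexp (0.037), the signal filter (0.039), trend and robust eBayes (0.046), the replicate block (0.047), slide as a random block (0.047) and without POD8 allograft 3 (0.046), and in no other alternative. Scan and slide divide the arrays alike, so scan was not run apart, and quantiles within each organ give no shared scale for the control organs. Signal near background limits Cdc6, Cdc45 and Ccne2 in the hepatic controls.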
